A study of Rattus norvegicus with 12 samples.

Results

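Genes of sterol and fatty acid synthesis were compared between the kidneys of 4 rat strains. They were a list of 33 SREBP-pathway genes, made of 17 enzymes of sterol synthesis, 5 regulators of the sterol regulatory element-binding proteins (SREBPs) and 11 genes of fatty acid synthesis. Each gene was represented by the probe set that carries its symbol alone and has the highest mean over all 12 arrays. Of the 33 genes, 32 had such a probe set, against 14209 genes on the whole array. Hmgcs1, an early enzyme of the mevalonate pathway, had none and was left out. In all, 31 of the 33 were tested, among 10890 genes tested. Gpam, which attaches the first fatty acid to glycerol, was not tested, because its pool means of 4.22 to 4.33 lay below the detection level of 5.74 in every strain. All values are log2 signals, and 40% of them lie below the detection level.

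The strains were SD, PCK, FHH and FHH.Pkhd1. SD is the outbred Sprague Dawley stock, and PCK was derived from it. PCK rats have mutated Pkhd1, whose human counterpart underlies autosomal recessive polycystic kidney disease. The Fawn Hooded Hypertensive strain, FHH, is inbred. FHH.Pkhd1 is a congenic line in which a segment of chromosome 9 from PCK, with Pkhd1 in it, was placed on the FHH background. The segment also brings the neighbouring PCK alleles, and none of the 32 genes measured lies on chromosome 9. PCK and SD are separate breeding populations, so they may differ at other loci than Pkhd1. All rats were killed at 30 days of age and had eaten the 5LOD diet, and no drug or other treatment is given. Each group was 1 RNA pool from the kidneys of 6 animals, hybridized to 3 arrays. The arrays of a group are technical replicates, so every standard error (SE) and p-value below measures the spread between arrays of a pool and not between animals. In whole kidney, fewer cells of a type and less RNA per cell cannot be told apart.

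Cells make cholesterol from acetyl-CoA through mevalonate, isoprenoids, squalene and lanosterol, and they make fatty acids from acetyl-CoA through malonyl-CoA. Both routes are switched on by SREBPs, membrane-bound precursors that Scap carries to the Golgi for cleavage when sterols are low and that the Insig proteins hold back when sterols are plentiful. The Srebf2 product mainly drives the sterol enzymes, and the Srebf1 product mainly drives the fatty acid enzymes. SREBPs bind promoters together with NF-Y, a factor that recognises the CCAAT box. In the kidney, sterols serve membranes of all nephron segments, whereas the proximal tubule takes much of its fuel from fatty acids that it oxidises.

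The promoters of 5 genes on which the results turn are shown, because 3 of them (Idi1, Lss and Hsd17b7) were low in PCK together, and the other 2 (Scd and Thrsp) were high in FHH.Pkhd1. Each line holds the 250 bases before the gene's start in GRCr8, from RefSeq, read 5′ to 3′ on the gene's strand, and capitals mark CCAAT on either strand.
Idi1 (chr17:66547525-66547774, minus strand): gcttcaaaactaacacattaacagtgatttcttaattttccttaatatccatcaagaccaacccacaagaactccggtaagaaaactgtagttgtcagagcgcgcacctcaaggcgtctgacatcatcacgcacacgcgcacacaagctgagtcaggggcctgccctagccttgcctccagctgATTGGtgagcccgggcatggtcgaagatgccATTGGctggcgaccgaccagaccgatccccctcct
Lss (chr20:12118231-12118480, minus strand): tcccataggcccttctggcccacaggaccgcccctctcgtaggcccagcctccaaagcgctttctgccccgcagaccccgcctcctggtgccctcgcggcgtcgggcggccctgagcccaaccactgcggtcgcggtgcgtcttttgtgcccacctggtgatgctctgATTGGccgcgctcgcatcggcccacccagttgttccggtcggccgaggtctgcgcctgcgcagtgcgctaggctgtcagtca
Hsd17b7 (chr13:84722755-84723004, minus strand): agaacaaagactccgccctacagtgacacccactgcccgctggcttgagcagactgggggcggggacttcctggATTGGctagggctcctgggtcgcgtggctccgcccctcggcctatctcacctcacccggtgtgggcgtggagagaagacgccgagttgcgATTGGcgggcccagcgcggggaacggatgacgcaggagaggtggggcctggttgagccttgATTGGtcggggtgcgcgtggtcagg
Scd (chr1:253231732-253231981, minus strand): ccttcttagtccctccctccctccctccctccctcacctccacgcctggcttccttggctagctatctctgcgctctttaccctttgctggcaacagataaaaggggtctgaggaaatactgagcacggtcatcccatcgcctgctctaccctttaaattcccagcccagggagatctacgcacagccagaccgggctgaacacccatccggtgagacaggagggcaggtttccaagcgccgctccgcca
Thrsp (chr1:161138965-161139214, minus strand): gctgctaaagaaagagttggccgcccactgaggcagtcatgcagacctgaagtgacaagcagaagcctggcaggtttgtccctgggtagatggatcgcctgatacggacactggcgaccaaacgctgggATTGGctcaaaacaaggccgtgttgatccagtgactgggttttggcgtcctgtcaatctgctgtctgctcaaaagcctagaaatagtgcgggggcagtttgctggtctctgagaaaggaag
Windows of 300 bases, from 250 before to 50 after the start, were given for 27 of the 33 genes, in 28 windows since Srebf1 has 2. CCAAT, searched on both strands, occurred in 12 of 14 windows of sterol enzymes (85.7%), 5 of 6 of regulators (83.3%) and 5 of 8 of fatty acid genes (62.5%). The share over all 33469 windows of the table was 37.5%. In the printed bases Hsd17b7 held 3 such boxes, Idi1 2, and Lss and Thrsp 1 each, whereas the Scd bases held none. GGGCGG, the GC box, occurred in 12 of 14, 5 of 6 and 6 of 8 windows, against 33.1% of all windows and 55.7% of the windows of genes with a probe set. CACGTG, an E-box, occurred in 1 of 14, 2 of 6 and 0 of 8, against 6.42% of all windows. TCACNCCAC, a strict form of the sterol regulatory element, was in none of the 28 windows and in 1.12% of all. None of these 4 motifs is contained in another. These are matches of letters and not measured binding sites.

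The arrays were alike in scale, with medians of 6.41 to 6.46. The correlation between arrays was 0.9973 to 0.9985 within pools and 0.9862 to 0.9959 between pools. Markers of proximal tubule (8 of 8), thick limb and distal tubule (3 of 3), collecting duct (5 of 5) and podocyte (2 of 2 with a probe set) were above the detection level in all 4 pools. Among the labelling controls, the poly-A spike-ins averaged 10.50 in SD, 10.86 in PCK, 11.14 in FHH and 10.04 in FHH.Pkhd1. The beta-actin 3′ minus 5′ signal was 1.10, 1.33, 1.39 and 1.2 respectively. In each of the 4 comparisons between pools made here, these controls had an exact two-sided permutation p of 0.1, the smallest that 3 arrays against 3 can give. Calls required a limma adjusted p under 0.05, taken over all genes tested, together with a difference of 1.5-fold or more.

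Several sterol enzymes were lower in PCK. In PCK minus SD, 4 of the 16 tested were called lower (Idi1, Lss, Hsd17b7 and Sqle), and 1 was called higher (Sc5d). Among all genes tested in PCK minus SD, 1.42% were called lower and 1.69% higher. In FHH.Pkhd1 minus FHH, none of the 16 was called, against 0.395% of all genes called higher and 0.872% lower there. Without a fold limit, Pmvk at an adjusted p of 0.0338 and Cyp51 at 0.00939 were the only sterol enzymes under 0.05 in the congenic comparison. On the probe set kept for each gene, all 16 differences there lay between -0.15 and 0.19. Other probe sets of Fdft1 (-0.21, SE 0.05), Idi1 (-0.20, SE 0.06), Lss (-0.19, SE 0.10) and Nsdhl (-0.17, SE 0.07) lay below that range. Those of Cyp51 (-0.07), Hsd17b7 (0.17), Mvk and Sc5d lay within it.

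Idi1, the isomerase that makes the active isoprenoid unit, showed the widest range of the sterol enzymes called lower. Its log2 signals were 10.09, 10.02 and 10.12 in SD, 8.80, 8.88 and 8.95 in PCK, 9.46, 9.31 and 9.28 in FHH, and 9.43, 9.49 and 9.47 in FHH.Pkhd1. The PCK arrays were below all others, the SD arrays above all others, and the FHH and FHH.Pkhd1 arrays overlapped. PCK was 2.30-fold below SD (log2 difference -1.20, SE 0.05, adjusted p = 5.27e-09). SD was above FHH by 0.72 (SE 0.05, adjusted p = 4.96e-07). A less bright Idi1 probe set gave -1.04 (SE 0.06) in PCK minus SD, but -0.20 (SE 0.06) in FHH.Pkhd1 minus FHH, where the kept probe set gave 0.11 (SE 0.05). In SD minus FHH the less bright one gave 0.47 (SE 0.06), short of 1.5-fold.

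Sqle, squalene epoxidase, is the first oxygen-dependent step of the route. Its signals were 7.99, 7.84 and 7.82 in SD, 7.20, 7.27 and 7.12 in PCK, 7.96, 7.77 and 7.73 in FHH, and 7.75, 7.85 and 7.77 in FHH.Pkhd1. The PCK arrays lay below the other 9, which overlapped among themselves. The PCK minus SD difference was -0.69 (SE 0.07, adjusted p = 5.57e-06), a 1.61-fold lower signal.

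Lss, lanosterol synthase, closes the ring system that all later intermediates keep. Its signals were 8.35, 8.33 and 8.30 in SD, 7.49, 7.47 and 7.42 in PCK, 8.40, 8.35 and 8.39 in FHH, and 8.43, 8.45 and 8.41 in FHH.Pkhd1. PCK stood clear of the other 3 pools, whose 9 arrays spanned 8.30 to 8.45. PCK was 1.83-fold below SD (-0.87, SE 0.03, adjusted p = 1.78e-09). The other Lss probe set was also lower in PCK than in SD, by less (-0.46, SE 0.10). It gave -0.19 (SE 0.10) in FHH.Pkhd1 minus FHH, against 0.05 (SE 0.03) for the kept one.

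Hsd17b7 encodes a 17-beta-hydroxysteroid dehydrogenase that also reduces the ketone left by demethylation of the sterol ring. Its signals were 7.26, 7.43 and 7.26 in SD, 6.42, 6.52 and 6.63 in PCK, 7.45, 7.52 and 7.48 in FHH, and 7.33, 7.34 and 7.34 in FHH.Pkhd1. The 3 PCK arrays were the lowest of the 12. PCK was below SD by 1.73-fold (-0.79, SE 0.06, adjusted p = 4.05e-07). Its other probe set gave -0.65 (SE 0.06) in the same comparison. The probe sets differed in sign in FHH.Pkhd1 minus FHH, with -0.15 (SE 0.06) for the kept one and 0.17 (SE 0.06) for the other.

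Cyp51, lanosterol demethylase, was lower in PCK without reaching 1.5-fold. Its signals were 9.14, 9.03 and 8.99 in SD, 8.59, 8.68 and 8.67 in PCK, 9.0, 8.92 and 8.92 in FHH, and 9.15, 9.14 and 9.11 in FHH.Pkhd1. The PCK arrays were again below the other 9, and FHH.Pkhd1 lay above FHH with no overlap. The differences were -0.41 (SE 0.04, adjusted p = 1.79e-05) in PCK minus SD and 0.19 (SE 0.04, adjusted p = 0.00939) in FHH.Pkhd1 minus FHH. The dimmer Cyp51 probe set gave -0.33 (SE 0.09) and -0.07 (SE 0.09).

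Sc5d, sterol C5-desaturase, was the exception. Its signals were 8.59, 8.32 and 8.51 in SD, 9.56, 9.78 and 9.59 in PCK, 9.62, 9.52 and 9.53 in FHH, and 9.58, 9.48 and 9.65 in FHH.Pkhd1. Here SD was the pool that stood apart, below the other 3, which overlapped. PCK exceeded SD by 1.17 (SE 0.07, adjusted p = 1.64e-07), and SD minus FHH was -1.09 (SE 0.07, adjusted p = 3.09e-07). The 3 Sc5d probe sets disagreed: the other 2 gave -0.67 (SE 0.05) and 0.44 (SE 0.05) in PCK minus SD. Averaged over its probe sets, Sc5d differed by 0.32 and the call was lost, so no direction is drawn for this gene.

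The other 10 sterol enzymes were not called in any comparison. In PCK minus SD, Msmo1 (-0.30, SE 0.04) and Nsdhl (-0.28, SE 0.04), which act in ring demethylation, Fdps (-0.22, SE 0.05), which makes farnesyl diphosphate, Tm7sf2 (-0.20, SE 0.04) and Mvd (-0.20, SE 0.06) had adjusted p-values of 0.000134 to 0.0267. Pmvk and Fdft1, squalene synthase, went the other way by 0.16 (SE 0.04) and 0.14 (SE 0.03), with adjusted p of 0.0131 and 0.00531. Mvk, Ebp and Dhcr7, the last enzyme of the route, were at -0.10, -0.11 and 0.02, with adjusted p of 0.0699 to 0.737. The dimmer Nsdhl probe set gave -0.27 (SE 0.07) here, and -0.17 (SE 0.07) in FHH.Pkhd1 minus FHH, where the kept one gave 0.00.

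All 3 PCK arrays lay below the other 9 arrays for 10 of the 16 sterol enzymes (Idi1, Fdps, Sqle, Lss, Cyp51, Tm7sf2, Msmo1, Nsdhl, Hsd17b7 and Ebp), as did 13.8% of all genes tested. The same was true of 1 of the 5 regulators (Insig1) and 5 of the 10 fatty acid genes tested (Fasn, Acaca, Scd, Fads1 and Thrsp). PCK had the lowest pool mean for 12 of 16 (75.0%), against 35.1% of all genes tested. These pool orders were chosen as a description after the values were seen. The median log2 difference of the 16 in PCK minus SD was -0.21, and that of all genes tested was -0.003. In the same pools the collecting duct markers had a summed log2 signal of 13.31 to 13.35 over the PCK arrays and 12.81 to 12.86 over the SD arrays, with Aqp3 called higher in PCK (0.63). The part of these markers, the spike-ins and the actin signal in the sterol values was not tested.

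**Figure D1:**
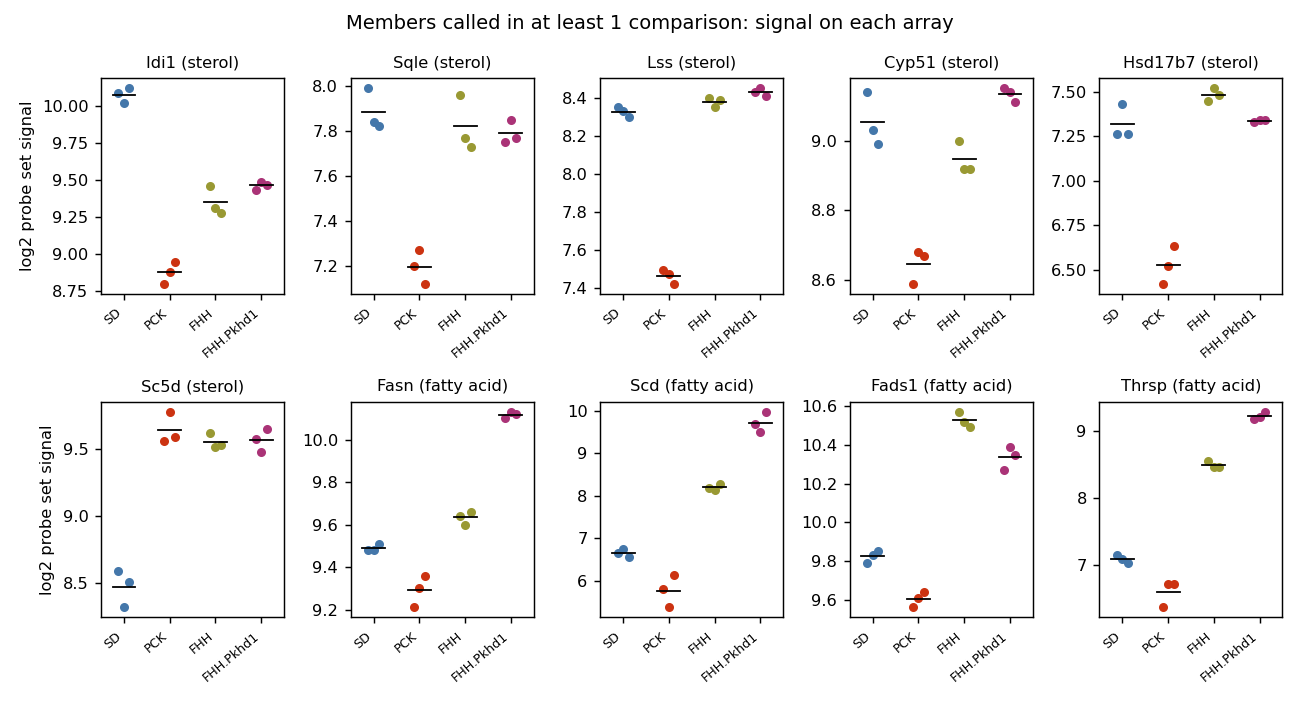
Log2 probe set signal on each of the 12 arrays for the 10 genes called in at least 1 comparison, with 1 dot per array and a line at the pool mean; each panel has its own vertical scale. In 5 of the 6 sterol panels the 3 PCK arrays are the lowest, in the Sc5d panel the SD arrays are, and Scd and Thrsp climb from PCK to FHH.Pkhd1.

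None of the 5 regulators was called in any comparison. Of all genes tested, 0.395% to 2.93% were called in each direction of a comparison. The absence of calls among 5 genes is therefore no result about them. The differences of the regulators in PCK minus SD lay between -0.27 and 0.17. Insig1, itself an SREBP target, was the regulator that followed the sterol enzymes in PCK. Its signals were 9.40, 9.43 and 9.42 in SD, 9.17, 9.15 and 9.12 in PCK, 9.29, 9.20 and 9.29 in FHH, and 9.43, 9.44 and 9.38 in FHH.Pkhd1. The PCK arrays were below all others, by -0.27 from SD (SE 0.03, adjusted p = 6.86e-05), and FHH.Pkhd1 was above FHH by 0.16 (SE 0.03, adjusted p = 0.00664).

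Srebf2, the sterol arm's activator, had signals of 8.56, 8.58 and 8.57 in SD, 8.59, 8.44 and 8.54 in PCK, 8.56, 8.60 and 8.50 in FHH, and 8.62, 8.70 and 8.77 in FHH.Pkhd1. SD, PCK and FHH overlapped, and FHH.Pkhd1 was just above them. Its PCK minus SD difference was -0.05 (SE 0.05, adjusted p = 0.45), which did not pass the test. The congenic difference was 0.14 (SE 0.05, adjusted p = 0.0518).

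Srebf1, the fatty acid arm's activator, was at 8.48, 8.51 and 8.32 in SD, 8.40, 8.43 and 8.53 in PCK, 8.55, 8.44 and 8.46 in FHH, and 8.74, 8.72 and 8.75 in FHH.Pkhd1. The FHH.Pkhd1 arrays stood above the other 9, which overlapped. FHH.Pkhd1 exceeded FHH by 0.25 (SE 0.05, adjusted p = 0.00479), a 1.19-fold difference, and its other probe set gave 0.31 (SE 0.07).

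Scap, the escort of the precursors, had signals of 8.52, 8.57 and 8.45 in SD, 8.68, 8.64 and 8.72 in PCK, 8.75, 8.64 and 8.64 in FHH, and 8.84, 8.87 and 8.89 in FHH.Pkhd1. SD was lowest and FHH.Pkhd1 highest, with PCK and FHH overlapping between them. Its differences were 0.17 (SE 0.04, adjusted p = 0.00986) in PCK minus SD and 0.19 (SE 0.04, adjusted p = 0.00885) in FHH.Pkhd1 minus FHH.

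Insig2, the constitutive partner of Insig1, had signals of 8.59, 8.52 and 8.44 in SD, 8.46, 8.61 and 8.50 in PCK, 8.57, 8.55 and 8.60 in FHH, and 8.57, 8.66 and 8.62 in FHH.Pkhd1. All 4 pools overlapped. A dimmer Insig2 probe set differed from this, with -0.36 (SE 0.08) in FHH.Pkhd1 minus FHH against 0.04 (SE 0.05) for the kept one. All 5 regulators had their highest pool mean in FHH.Pkhd1, as did 37.4% of all genes tested, although the Insig1 arrays of SD and FHH.Pkhd1 overlapped. For 3 of the 5 (Srebf1, Srebf2 and Scap) all 3 FHH.Pkhd1 arrays lay above the other 9, a pattern that 12.7% of all genes tested showed.

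Scd and Thrsp were higher in FHH.Pkhd1 than in FHH. In FHH.Pkhd1 minus FHH, 2 of the 10 tested were called, both higher (Scd and Thrsp), beside the 0.395% of all genes called higher. In PCK minus SD, 1 of the 10 was called, and it was lower (Scd). All 3 FHH.Pkhd1 arrays lay above the other 9 for 7 of the 10 (Fasn, Acaca, Acly, Scd, Elovl6, Fads2 and Thrsp), and for 1 of the 16 sterol enzymes (Lss), beside the 12.7% of all genes tested.

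Scd, the stearoyl-CoA desaturase that makes oleate, had the largest difference of the list in every comparison but PCK minus SD, where Idi1 and Sc5d exceeded it. Its signals were 6.66, 6.75 and 6.57 in SD, 5.81, 5.37 and 6.13 in PCK, 8.19, 8.14 and 8.27 in FHH, and 9.70, 9.51 and 9.98 in FHH.Pkhd1. No pool overlapped another, in the order PCK, SD, FHH, FHH.Pkhd1. FHH.Pkhd1 was 2.89-fold above FHH (1.53, SE 0.16, adjusted p = 2.86e-05). PCK was below SD by 0.89 on the log2 scale (a difference of -0.89, SE 0.16, adjusted p = 0.000844), although its mean of 5.77 was next to the detection level and 1 of its arrays was below it. Between the strains without the mutation, SD minus FHH was -1.54 (SE 0.16, adjusted p = 1.11e-05). The difference was thus of opposite sign in the 2 comparisons of a Pkhd1 strain with its background strain.

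Thrsp, the Spot 14 protein that stimulates fatty acid synthesis, had the same pool order. Its signals were 7.15, 7.09 and 7.03 in SD, 6.36, 6.71 and 6.71 in PCK, 8.56, 8.46 and 8.46 in FHH, and 9.18, 9.22 and 9.29 in FHH.Pkhd1. No pool overlapped another. FHH.Pkhd1 was 1.67-fold above FHH (0.74, SE 0.08, adjusted p = 4.53e-05), and SD minus FHH was -1.40 (SE 0.08, adjusted p = 5.9e-08). PCK minus SD was -0.50 (SE 0.08, adjusted p = 0.000417), short of 1.5-fold. The other 2 Thrsp probe sets gave 0.85 and 0.80 in FHH.Pkhd1 minus FHH and -0.58 and -0.21 in PCK minus SD.

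Fasn, fatty acid synthase, had signals of 9.48, 9.48 and 9.51 in SD, 9.21, 9.30 and 9.36 in PCK, 9.64, 9.60 and 9.66 in FHH, and 10.10, 10.13 and 10.12 in FHH.Pkhd1. The pools did not overlap and kept the order of Scd and Thrsp over a smaller range. FHH.Pkhd1 minus FHH was 0.48 (SE 0.04, adjusted p = 4.11e-06), or 1.40-fold, and therefore not called. A dimmer Fasn probe set gave 0.83 (SE 0.05), past 1.5-fold, and Fasn was called when probe sets were averaged or the one of highest variance was taken.

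Fads1, a desaturase of polyunsaturated fatty acids, separated the backgrounds. Its signals were 9.79, 9.83 and 9.85 in SD, 9.56, 9.61 and 9.64 in PCK, 10.57, 10.52 and 10.49 in FHH, and 10.27, 10.39 and 10.35 in FHH.Pkhd1. Both FHH pools lay above both SD-derived pools. SD minus FHH was -0.71 (SE 0.04, adjusted p = 5.11e-08). FHH.Pkhd1 was below FHH by 0.19 on the log2 scale (-0.19, SE 0.04, adjusted p = 0.00496), the opposite of Scd, Thrsp and Fasn.

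The remaining 6 tested fatty acid genes were not called in any comparison. In FHH.Pkhd1 minus FHH, Fads2 (0.43, SE 0.05), another polyunsaturated fatty acid desaturase, Elovl6 (0.40, SE 0.05), which elongates palmitate, Acly (0.26, SE 0.04), which makes cytosolic acetyl-CoA, and Acaca (0.23, SE 0.04), which makes malonyl-CoA, had adjusted p of 4.31e-05 to 0.00289. Acss2, which makes acetyl-CoA from acetate, and Me1, which supplies NADPH, were lower by -0.18 (SE 0.03, adjusted p = 0.00167) and -0.14 (SE 0.04, adjusted p = 0.0196). The same 2 genes were above SD in PCK, by 0.23 (SE 0.03) and 0.14 (SE 0.04). In PCK minus SD, Elovl6 was at 0.21 (SE 0.05, adjusted p = 0.0102), Acaca at -0.13 (SE 0.04, adjusted p = 0.0315), and Acly and Fads2 at -0.03 and 0.05, with adjusted p of 0.605 and 0.389. The other Elovl6 probe set gave 0.01 (SE 0.06) in PCK minus SD and 0.43 (SE 0.06) in FHH.Pkhd1 minus FHH. In SD minus FHH the Elovl6 probe sets differed in sign, with -0.12 (SE 0.05) for the kept one and 0.18 (SE 0.06) for the other.

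**Figure D2:**
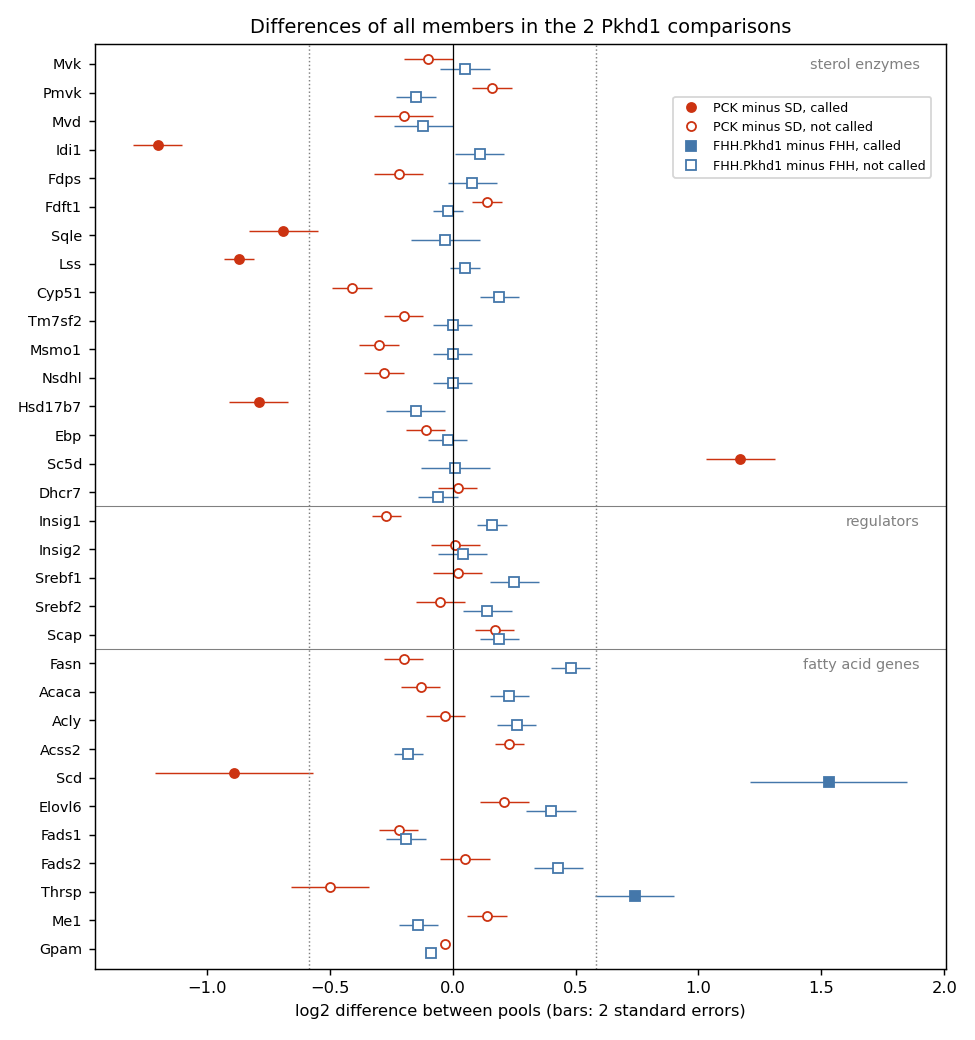
Log2 differences of the 32 genes with a probe set in PCK minus SD (circles) and FHH.Pkhd1 minus FHH (squares), filled where called; bars are 2 standard errors to each side, and dotted lines mark 1.5-fold. Gpam was not tested and has no bars. Called sterol enzymes other than Sc5d lie to the left in PCK minus SD, all sterol enzymes lie between -0.15 and 0.19 in the congenic comparison, where the fatty acid genes reach 1.53.

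The background strains differed in genes of both arms. In SD minus FHH, 5 genes of the list were called: Idi1 higher in SD, and Scd, Thrsp, Sc5d and Fads1 lower. Among all genes tested in SD minus FHH, 1.56% were called higher and 1.75% lower. All 6 FHH and FHH.Pkhd1 arrays lay above all 6 SD and PCK arrays for 5 of the 10 fatty acid genes (Fasn, Acaca, Scd, Fads1 and Thrsp), for 2 of the 16 sterol enzymes (Lss and Dhcr7) and for 0 of the 5 regulators, against 14.0% of all genes tested. For Lss the step from FHH to SD was small (-0.05, SE 0.03, adjusted p = 0.228). Dhcr7 had pool means of 9.90 in SD, 9.92 in PCK, 10.19 in FHH and 10.14 in FHH.Pkhd1, and its SD minus FHH difference was -0.30 (SE 0.04, adjusted p = 5.82e-05).

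Between the strains that carry the mutation, genes of both arms were lower in PCK. In PCK minus FHH.Pkhd1, 8 genes were called, all lower in PCK: Lss, Hsd17b7, Sqle and Idi1 of the sterol enzymes, and Scd, Thrsp, Fasn and Fads1 of the fatty acid genes. Among all genes tested in PCK minus FHH.Pkhd1, 2.9% were called lower and 2.93% higher. Scd was 15.6-fold lower (-3.96, SE 0.16, adjusted p = 1.05e-09), a value that rests on PCK signals next to the detection level. Thrsp was 6.21-fold lower (-2.63, SE 0.08, adjusted p = 9.71e-11) and Fasn 1.77-fold (-0.83, SE 0.04, adjusted p = 5.41e-09). Lss was 1.96-fold lower (-0.97, SE 0.03, adjusted p = 2.93e-10) and Hsd17b7 1.75-fold (-0.81, SE 0.06). The dimmer probe sets of Lss (-0.38, SE 0.10) and Idi1 (-0.37, SE 0.06) were short of 1.5-fold here, and that of Hsd17b7 (-1.16, SE 0.06) was past it. Idi1 and Sqle were at the fold limit, both at -0.59. The Idi1 call was lost without PCK replicate 1 (-0.55) or FHH.Pkhd1 replicate 2 (-0.58), and the Sqle call without PCK replicate 3 (-0.55) or FHH.Pkhd1 replicate 2 (-0.56). This comparison shares its arrays with the preceding ones, so its values are no separate evidence.

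The interaction, PCK minus SD less FHH.Pkhd1 minus FHH, tested whether the Pkhd1 strains differed from their background strains by different amounts. It called 9 genes of the list, 8 lower and 1 higher (Sc5d), among 2.12% of all genes called lower and 2.9% higher. The 5 sterol enzymes lower were Idi1 (-1.31, SE 0.07, adjusted p = 9.49e-08), Lss (-0.92, SE 0.05, adjusted p = 4.13e-08), Sqle (-0.66, SE 0.09, adjusted p = 0.000209), Hsd17b7 (-0.65, SE 0.08, adjusted p = 6.84e-05) and Cyp51 (-0.60, SE 0.06, adjusted p = 1.88e-05). For these the PCK minus SD difference was the larger in size. The dimmer probe sets of Lss (-0.27, SE 0.15) and Cyp51 (-0.27, SE 0.12) were short of 1.5-fold in the interaction. Those of Idi1 (-0.84, SE 0.09) and Hsd17b7 (-0.81, SE 0.08) were past it. The 3 fatty acid genes were Scd (-2.42, SE 0.22, adjusted p = 5.65e-06), Thrsp (-1.24, SE 0.11, adjusted p = 5.59e-06) and Fasn (-0.69, SE 0.06, adjusted p = 1.91e-06). For Scd, Thrsp and Fasn (-0.20 and 0.48) the differences were of opposite sign in the 2 comparisons, with adjusted p under 0.05 in each. The same held for Cyp51 (-0.41 and 0.19), although its dimmer probe set gave -0.33 and -0.07. The Cyp51 call was lost without PCK replicate 1 (-0.57), SD replicate 1 (-0.56) or FHH replicate 3 (-0.58).

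The arms were also set against each other by their medians, with no test, since genes of an arm are not replicates. The median log2 difference of the sterol enzymes and of the fatty acid genes was -0.21 and -0.03 in PCK minus SD. It was 0.00 and 0.26 in FHH.Pkhd1 minus FHH, where the median of all genes tested was 0.012. In SD minus FHH the medians were -0.05 and -0.14, beside -0.041 for all genes tested. The sterol median minus the fatty acid median was thus -0.18 in the first of these and -0.26 in the congenic comparison. The signs were alike although the first came from low sterol enzymes and the second from high fatty acid genes. Without PCK replicate 1 the first was -0.09. In PCK minus FHH.Pkhd1 the medians were -0.25 and -0.50, beside -0.055 for all genes tested.

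Array by array, the sterol median stood apart in PCK and the fatty acid median in FHH.Pkhd1. Each gene was centred on its mean over the 12 arrays, and the median over the genes of an arm was taken. The sterol enzymes were at -0.21 to -0.17 on the PCK arrays and at 0.038 to 0.1 on the other 9. The fatty acid genes were at -0.185 to -0.143 on the SD and PCK arrays, 0.033 to 0.051 on the FHH arrays and 0.279 to 0.339 on the FHH.Pkhd1 arrays. The regulators were at 0.123 to 0.185 on the FHH.Pkhd1 arrays and at -0.118 to 0.01 on the others. PCK and SD did not separate in the fatty acid median, while single genes did separate them on the kept probe sets, in both directions. Fasn, Acaca, Scd, Fads1 and Thrsp were lower in PCK, and Acss2, Elovl6 and Me1 higher, without overlap of arrays.

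**Figure D3:**
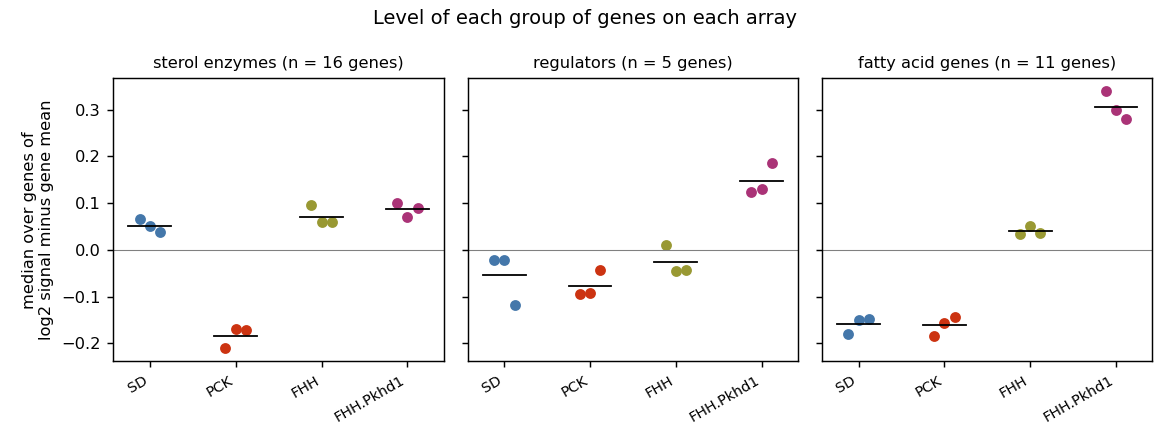
Median over the genes of each group of the log2 signal minus the gene's mean over 12 arrays, with 1 dot per array and a line at the mean of the 3 arrays; Gpam is among the 11 fatty acid genes. PCK is low in the sterol panel (-0.21 to -0.17), and FHH.Pkhd1 is high in the fatty acid panel (0.279 to 0.339) and the regulator panel (0.123 to 0.185).

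Markers of fat and of the adrenal cortex, tissues that border the kidney and are rich in these pathways, were measured beside the fatty acid genes. The 8 adipocyte markers with a probe set had a summed log2 signal of 10.63 to 10.65 over the SD arrays, 10.42 to 10.49 in PCK, 11.06 to 11.12 in FHH and 11.19 to 11.23 in FHH.Pkhd1, which is the pool order of Scd, Thrsp and Fasn. Lep was below the detection level in all 4 pools and Plin1 in SD and PCK. Plin1, Cfd and Fabp4 were called lower in SD minus FHH (-0.59, -1.32 and -0.81) and in PCK minus FHH.Pkhd1 (-1.02, -1.45 and -1.45). The same list held markers that were not lower there: Cidec was at 0.22 and 0.58 in these comparisons and Lipe at 0.21 and 0.27, without a call. The sum weights the brightest markers most, and Fabp4 was the brightest. Fabp4 was also called lower in the interaction (-0.64).

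The 4 brown fat markers summed to 9.0 to 9.14 in SD, 9.12 to 9.22 in PCK, 10.52 to 10.71 in FHH and 10.35 to 10.44 in FHH.Pkhd1, with Elovl3 below the detection level in all. Cox8b, Cidea and Ucp1 were called lower in SD minus FHH (-1.89, -1.70 and -1.31) and in PCK minus FHH.Pkhd1 (-1.65, -1.13 and -1.13). In FHH.Pkhd1 minus FHH none of the 7 adipocyte markers tested was called, the largest differences being those of Cidec (-0.46) and Plin1 (0.41), and the brown fat gene Ucp1 was called lower (-0.59). Of the 8 adipocyte markers 3 were above 0 there (Plin1, Cfd at 0.34 and Fabp4 at 0.26) and 5 below. The median difference there was -0.10 for adipocyte markers, -0.14 for brown fat markers and 0.26 for the fatty acid genes. These medians include Lep, Elovl3 and Gpam, which were below the detection level in all pools. No brown fat marker was called in the interaction, where Cidea was at 0.57 and Cox8b at 0.24. Adipoq, the adipocyte hormone, was at 6.17, 5.98, 6.44 and 6.16 in SD, PCK, FHH and FHH.Pkhd1. The part of fat tissue in the differences between the SD and FHH backgrounds, and in those of FHH.Pkhd1 minus FHH, was not tested.

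The 6 adrenal cortex markers with a probe set summed to 7.91 to 7.94 in SD, 7.83 to 7.98 in PCK, 9.43 to 9.46 in FHH and 10.41 to 10.54 in FHH.Pkhd1. In FHH.Pkhd1 minus FHH, 4 of the 5 tested were called higher: Hsd3b1 (1.07), Cyp11a1 (0.92) and Star (0.83), genes of steroid hormone synthesis, and Akr1b7. Hsd3b1 (-2.42), Cyp11a1 (-1.46), Star (-1.11) and Akr1b7 were called lower in SD minus FHH. In the interaction Cyp11a1 (-1.08), Hsd3b1 (-1.08), Star (-0.93) and Akr1b7 were called lower. In PCK minus FHH.Pkhd1 all 5 were, with Hsd3b1 at -3.49. Akr1b7 was below the detection level in SD, PCK and FHH (means 4.08, 3.85 and 5.73) and was tested through FHH.Pkhd1 alone, so its differences do not measure a change between signals above that level. Star was below the level in SD and PCK (5.6 and 5.5), and Cyp11a1 in PCK (5.61). Hsd3b1 was next to the level in SD and PCK (5.8 and 5.8), as was Cyp11a1 in SD (5.76). This limits their differences between the SD-derived and the FHH pools. Of the 5 collecting duct markers, Scnn1a (0.85) and Slc4a1 (0.65) were called higher in FHH.Pkhd1 minus FHH as well, beside 0.395% of all genes tested. Aqp2 (0.29), Aqp3 (0.25) and Atp6v1b1 (-0.13) were not called there. Cyp11b1, which makes corticosterone in the adrenal cortex, was below the detection level in all 4 pools. The part of adrenal tissue in the higher fatty acid genes and regulators of FHH.Pkhd1 was not tested. In PCK minus SD no adipocyte or adrenal marker was called, with Fabp4 at -0.38, Cfd at 0.22, Akr1b7 at -0.23 and Cyp21a1 at 0.22. The adipocyte sum was lower in PCK (10.42 to 10.49) than in SD (10.63 to 10.65). Star, Akr1b7 and Cyp11b1 were below the detection level in both pools. The brown fat gene Cidea was called higher in PCK (0.60). The part of fat and adrenal tissue in the sterol enzyme differences of PCK minus SD was not tested.

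**Figure D4:**
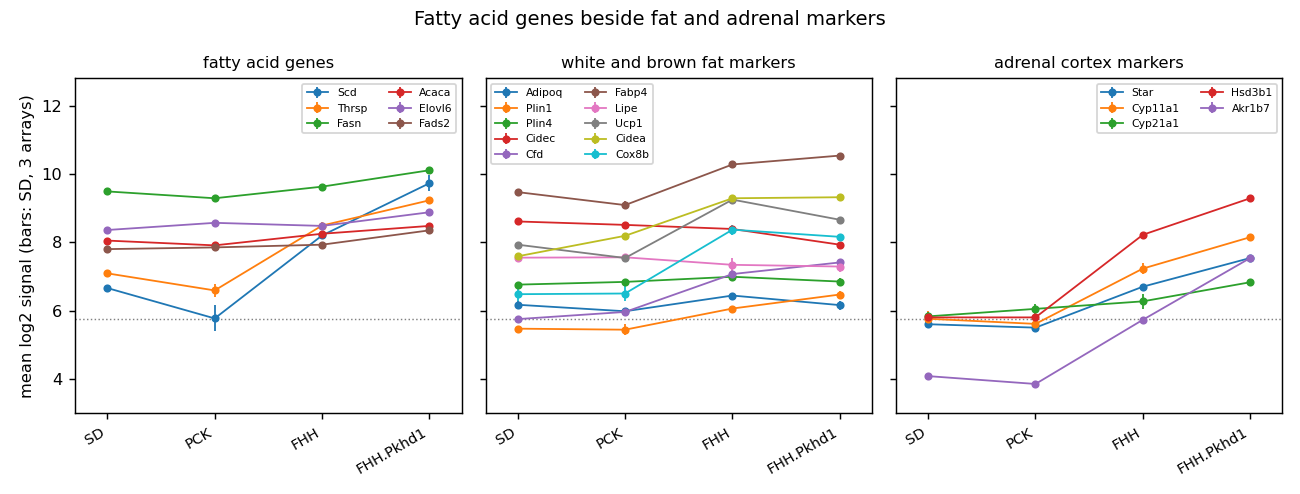
Mean log2 signal in each pool, with bars of 1 standard deviation over 3 arrays, for 6 fatty acid genes, 10 fat markers and 5 adrenal cortex markers; lines only join the values of 1 gene, and the dotted line is the detection level of 5.74. Scd and Thrsp are higher in the FHH pools than in the SD-derived pools, as are Cfd, Fabp4, Hsd3b1 and Cyp11a1, while Lipe and Cidec are not.

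Other genes of sterol handling were mostly not called, as were most genes tested, with 0.395% to 2.93% of all called per direction of a comparison. Of 20 listed genes, most of them of sterol transport, storage and sensing, 19 were tested. The list also holds genes around the synthesis route (Acat2, Ggps1, Por, Cyb5r3 and Aacs), none of them called in any comparison. Abca1, the cholesterol exporter of the plasma membrane, was called lower in PCK minus SD (-0.73, SE 0.05), higher in SD minus FHH (1.19, SE 0.05) and lower in the interaction (-1.03, SE 0.07). Its pool means were 8.21 in SD, 7.48 in PCK, 7.02 in FHH and 7.32 in FHH.Pkhd1, so it was highest in SD. Nr1h3, the sterol-sensing receptor LXR alpha, was called higher in PCK minus FHH.Pkhd1 (0.62, SE 0.05). In FHH.Pkhd1 minus FHH none was called, and the largest differences were those of Soat1 (0.36), which esterifies cholesterol, and Abcg1 (0.31), another exporter.

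Other genes of fatty acid and triglyceride handling, with 19 of 22 tested, also gave few calls. Few calls are no result about either list, given the 0.395% to 2.93% of all genes called per direction. Pparg, the regulator of fat cell formation, was called lower in SD minus FHH (-0.69) and in PCK minus FHH.Pkhd1 (-0.72), and its means of 5.3 in SD and 5.4 in PCK were below the detection level. Acsl3, which activates long-chain fatty acids, was called lower in the interaction (-0.69), from -0.45 in PCK minus SD and 0.24 in the congenic comparison. None of the 19 was called in either of those 2, and Slc25a1, the mitochondrial citrate carrier, was at -0.41 in the second. In FHH.Pkhd1 minus FHH, 17 of the 20 with a probe set lay above 0 and 3 below. Their median was 0.13, beside 0.012 for all genes tested. Scd2, a paralogue of Scd on its own probe set, was at 10.08 in SD, 10.51 in PCK, 10.40 in FHH and 10.89 in FHH.Pkhd1. It was higher in the Pkhd1 strain of both pairs, by 0.43 (SE 0.04, adjusted p = 1.45e-06) and 0.49 (SE 0.04, adjusted p = 1.59e-06), whereas Scd was lower in PCK. The interaction for Scd2 was -0.05 (SE 0.05, adjusted p = 0.439).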

How the data were processed

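Kidney RNA of 4 rat strains, 1 pool of 6 animals each, was measured on 3 Affymetrix rat arrays per pool, from biotin-labelled cRNA made with 100 ng of RNA, per the labels' protocols. The authors deposited log2 probe set signals; per the submitters' processing notes, RMA and Partek 6.2 made them. Joint normalization of the 12 arrays is not stated. No further normalization was applied to the values, which ran from 2.38 to 14.41. Comparisons between strains are limited by the 1 pool per strain, whatever the number of arrays.

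Of 31099 probe sets, 57 were controls, 20826 carried 1 gene symbol, 436 several and 9780 none. Symbols of 20822 were found in RefSeq gene records on GRCr8, from which names and chromosomes came. The probe set of highest mean stood for each of 14209 genes, and genes with a pool mean at or above the 40th percentile of the table (5.74) were tested. Limma 3.58.1 in R 4.3.3 fitted 1 mean per strain over 12 arrays, with eBayes (prior degrees of freedom 4.02, residual 8) and Benjamini-Hochberg adjustment over 10890 genes. The interaction was (PCK minus SD) minus (FHH.Pkhd1 minus FHH).

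The members, gene lists and tests were chosen with earlier results of these data known. Values on each array were given for members called in at least 1 comparison without overlap of arrays and for the 5 regulators; other probe sets where their sign or call differed; and, of each other list, up to 4 called genes per comparison or the 2 largest values where none was called, given for the pathway lists and for the fat and adrenal markers. Deviations from the pool means of arrays with the same replicate number correlated at -0.331 to 0.338 (median -0.019) and those of arrays with different numbers at -0.381 to 0.319 (median -0.011), so the numbers pair no arrays. The fit was tested on simulated data of 10770 genes for PCK minus SD, where it called 100% of genes with 1.8-fold, 2-fold and 4-fold changes, 0% with 1.2-fold changes and 0% without change. The simulated spread was that between arrays of a pool, and no change between 1.2-fold and 1.8-fold was tried. It therefore does not measure false calls from differences between animals. Promoters came from a RefSeq table on GRCr8. Figures were drawn with matplotlib 3.10.9.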

Additional observations from a re-analysis of the deposited data

Results flagged for a closer look

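For 9 genes the difference between a Pkhd1 strain and its background strain was not the same in the SD-derived and the FHH pair, by the limma interaction term (PCK minus SD less FHH.Pkhd1 minus FHH, log2). Each had no overlap between arrays of the pair in which it differed most. The interaction was -1.31 for Idi1, which was lower in PCK than in SD by a difference of -1.20 and at 0.11 in the congenic pair. It was -0.92 for Lss (-0.87 and 0.05), -0.66 for Sqle (-0.69 and -0.03) and -0.65 for Hsd17b7 (-0.79 and -0.15). For Cyp51 it was -0.60, from -0.41 and 0.19. The dimmer probe sets of Lss (-0.27, SE 0.15) and Cyp51 (-0.27, SE 0.12) were short of 1.5-fold in the interaction. Sc5d had 1.16, from 1.17 and 0.01, on a probe set that 1 of its other probe sets contradicts in sign (-0.67) and the other does not (0.45). Among the fatty acid genes it was -2.42 for Scd (-0.89 and 1.53), -1.24 for Thrsp (-0.50 and 0.74) and -0.69 for Fasn (-0.20 and 0.48). All rest on 3 arrays of 1 pool per strain.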

How the results depend on the processing

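Of 711 values of the 30 calls under alternatives, 675 stayed called with the same direction, 36 were no longer called and 0 reversed. The 2-fold limit ended 18 of the calls. Some alternatives could hardly end a call: having no fold limit cannot, and leaving out an array of a pool outside a comparison keeps its difference. Of the 30 calls, 27 held without any single array; the other 3 were Idi1 and Sqle in PCK minus FHH.Pkhd1 and Cyp51 in the interaction. In the comparisons PCK minus SD, congenic minus FHH, PCK minus congenic, SD minus FHH and interaction, in this order, the number of genes of the list called was 6, 2, 8, 5 and 9. With no fold limit it was 23, 15, 27, 14 and 23, and with a 2-fold limit 2, 1, 2, 3 and 4. The share of all genes tested was not taken under these other limits. Those counts show only how the calls depend on the limit and are no result about the list. With the replicate block these counts were 6, 2, 8, 5 and 9, and it changed no call. Scaling by quantiles ended the Idi1 and Sqle calls in PCK minus FHH.Pkhd1 (-0.53 and -0.52) and the Cyp51 call in the interaction (-0.58). With the mean of a gene's probe sets 5 calls were lost: Sc5d at 0.32 in PCK minus SD, -0.36 in SD minus FHH and 0.31 in the interaction, Idi1 at -0.48 in PCK minus FHH.Pkhd1 and Cyp51 at -0.43 in the interaction. The sterol minus fatty acid median was -0.33 in FHH.Pkhd1 minus FHH when only genes above the 50th percentile were used, which leaves out Gpam (-0.26 in the report). It was 0.05 in PCK minus FHH.Pkhd1 with the mean of probe sets (0.25 in the report) and 0.16 in SD minus FHH with the probe set of highest variance (0.09 in the report); the cause was not tested. Each strain is 1 pool, so no alternative measures the spread between animals. Scd in PCK lies next to the detection level, which limits its difference there.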
